A study of Mus musculus with 6 samples.

Results

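The troponins and tropomyosins are the proteins that switch the thin filament of striated muscle on and off with calcium. Their messenger RNAs were examined in the E13.5 mouse OFT, the embryonic cardiac outflow tract. The 10 genes, *Tnnt1*, *Tnnt2*, *Tnnt3*, *Tnni1*, *Tnni3*, *Tnnc1*, *Tpm1*, *Tpm2*, *Tpm3* and *Tpm4*, were taken by symbol from the 28777 genes of the counts table, and 10 of the 10 passed the filter on low counts that left 28157 genes for testing. The table held 6 bulk RNA-Seq libraries, each made from 3 OFTs pooled after genotyping. In 3 libraries the embryos were labelled *Notch1*+/-; *Nos3*-/- (mutant), heterozygous for a knockout allele of the receptor *Notch1* and homozygous for one of *Nos3*, the endothelial nitric oxide synthase. In the other 3 they were labelled wildtype, and these were littermates without either allele. The comparison asks which transcripts of the developing OFT differ between these genotypes.

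A troponin complex holds one T, one I and one C subunit. Troponin T anchors it to tropomyosin, troponin I blocks the actin-myosin interaction at rest, and troponin C binds calcium and lifts that block. Tropomyosin is the coiled-coil dimer that lies along actin and covers the myosin sites. *Tnnt2* and *Tnni3* encode the cardiac forms of T and I, *Tnni1* the slow skeletal form of I that the fetal heart also uses, *Tnnt1* and *Tnnt3* the slow and fast skeletal forms of T, and *Tnnc1* the form of C shared by heart and slow muscle. *Tpm1* is the main tropomyosin gene of the heart, *Tpm2* is used in skeletal and smooth muscle, and *Tpm3* and *Tpm4* also encode cytoskeletal tropomyosins of cells other than muscle. Fetal and adult forms of *Tnnt2*, and striated and smooth muscle forms of *Tpm1*, come from splicing of one gene, so counts per gene cannot separate them.

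Between 34729103 and 44387490 counts were listed per library, and the 10 genes held from 0.966% to 1.59% of them. Levels below are CPM, counts per 1000000 counts of the library, on library sizes scaled by the trimmed mean of M values (TMM). *Nos3* was 21.5 ± 0.949 CPM (mean ± SD, n = 3) under the mutant label and 42.4 ± 9.18 under the wildtype label, with no overlap. *Notch1* went against its label, at 152 ± 10.9 CPM under mutant and 82 ± 7.09 under wildtype (log2 fold change 0.89, adjusted p = 0.0313, edgeR's quasi-likelihood test). Counts per gene do not tell whether reads came from the deleted part of either gene. Group names in all that follows are therefore the labels of the libraries. For wildtype replicates 2 and 3, titles and descriptions give opposite library numbers, and the titles were used to name them. Myocardial genes were abundant in each library, with *Myh7*, *Actc1*, *Myl2* and *Myh6*, the main heavy chains, light chain and actin of the list, at means of 6910, 6080, 4730 and 2300 CPM. Of a list of 15 skeletal muscle genes, *Myog* was at 0.424 to 1.95 CPM and *Myod1* did not exceed 0.361 CPM. *Myf5*, *Myf6*, *Pax7* and *Tnnc2* were not listed. Others of that list were higher, with *Tnni2* at 14.1 to 50.8 CPM and *Mylpf* at 3.69 to 11.5 CPM. *Myh3* was at 0.716 to 6.53 CPM and *Myh8* at 0.36 to 3.28 CPM.

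The promoters of 4 of the genes are shown. *Tnnt2*, *Tnnc1* and *Tpm1*, of the members with lower counts under the mutant label, were chosen after the motif counts were seen because their windows share a motif, and *Tpm4*, which did not have lower counts, because its window has no match to the capitalised motifs and is rich in CpG. RefSeq (GRCm38.p6) gave 12 windows of 300 bases, from 250 before to 50 after a transcription start, for 9 of the 10 genes. Each sequence below is the 250 bases before the start. These 250 bases lie at chr1:135836084-135836333 (plus strand, *Tnnt2*, the more upstream of its starts), chr14:31208062-31208311 (plus strand, *Tnnc1*), chr9:67049214-67049463 (minus strand, *Tpm1*) and chr8:72135038-72135287 (plus strand, *Tpm4*). Capitals mark matches on either strand to AGATAA (the GATA site), CATTCC (the TEAD site) and TGGGAA (the RBPJ site).
Tnnt2: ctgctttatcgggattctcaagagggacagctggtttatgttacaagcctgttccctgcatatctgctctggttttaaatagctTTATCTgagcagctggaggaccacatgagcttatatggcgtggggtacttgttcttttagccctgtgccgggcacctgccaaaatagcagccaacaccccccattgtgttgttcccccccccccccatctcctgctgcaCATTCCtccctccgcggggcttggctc
Tnnc1: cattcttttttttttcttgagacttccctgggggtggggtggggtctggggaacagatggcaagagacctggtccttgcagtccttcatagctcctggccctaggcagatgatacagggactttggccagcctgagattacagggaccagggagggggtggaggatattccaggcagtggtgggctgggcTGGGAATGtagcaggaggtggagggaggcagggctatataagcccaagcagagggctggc
Tpm1: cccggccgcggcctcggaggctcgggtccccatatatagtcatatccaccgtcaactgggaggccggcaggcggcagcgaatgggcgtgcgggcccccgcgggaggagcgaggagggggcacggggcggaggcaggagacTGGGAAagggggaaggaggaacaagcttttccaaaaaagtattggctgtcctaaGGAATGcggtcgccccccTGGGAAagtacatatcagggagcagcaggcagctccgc
Tpm4: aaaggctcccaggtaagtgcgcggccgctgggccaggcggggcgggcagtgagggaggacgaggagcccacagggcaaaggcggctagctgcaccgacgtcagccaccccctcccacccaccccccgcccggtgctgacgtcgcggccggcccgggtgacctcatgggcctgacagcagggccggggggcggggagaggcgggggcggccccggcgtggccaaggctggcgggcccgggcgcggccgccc

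A match to the TEAD site was found in 3 of the 12 member windows, of *Tnnt2*, *Tnnc1* and *Tpm1*, and in 14.7% of all 32851 windows. In each of the 3 it lay within 58 bases of the start, from base −27 in *Tnnt2*, −58 in *Tnnc1* and −56 in *Tpm1*. The share of all windows with a match that near the start was not counted. The windows of *Tnnt1*, *Tnni1* and *Tnni3*, whose counts were also lower, and the second window of *Tnnt2* had none. In *Tnnc1* it overlapped a match to the RBPJ site, the sequence bound by the nuclear partner of Notch. The RBPJ letters occurred in 5 of the 12 windows, of 4 members (*Tnni1*, *Tnni3*, *Tnnc1* and *Tpm1*, which had 2 matches), and in 25.6% of all windows. The 2 windows of *Tnni1* overlap and hold the same match. The GATA site was found in 2 of the 12 windows, of *Tnnt2* and *Tpm3* (11.2% of all windows). The letters TATAAA of the TATA box occurred in *Tnnt1* alone among the members (13.6%), and other spellings of that box were not searched. The E box (CANNTG) was present in 12 of 12 member windows and 72.3% of all windows. The CArG box and the MEF2 site, found in 1.63% and 3.19% of all windows, had no match in the 12 windows. These are counts of letters in short windows and not sites shown to be bound. The windows also differed in CpG dinucleotides. The 7 troponin windows held from 1 to 6, against a median of 7 over all windows, whereas those of *Tpm1*, *Tpm2* and *Tpm4* held 27, 20 and 31. The windows of *Tpm3* held 3 and 15, the first within the troponin range. The *Tpm4* window was 76.0% G and C.

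In the comparison of the groups, 5 genes used in heart muscle (*Tnnt2*, *Tnni1*, *Tnni3*, *Tnnc1* and *Tpm1*) and the slow skeletal *Tnnt1* had lower counts under the mutant label, with log2 fold changes from −0.92 to −0.46. The tropomyosin genes of other tissues did not share this direction: *Tpm2* and *Tpm4* were at 0.23 and 0.21 and *Tpm3* at 0.04. The median over the 10 members was −0.47, and 0.0106 over all genes tested. None passed edgeR's quasi-likelihood test (0 members at an adjusted p of at most 0.05, where 0.0213% of all genes tested were called). Limma-voom also called 0. At an unadjusted p under 0.05 there were 6 lower and 1 higher, against 7.83% and 8.23% of all genes. DESeq2's Wald test called 4 members lower, *Tnnt2*, *Tnni1*, *Tnni3* and *Tnnc1*, with adjusted p-values from 0.0213 to 0.0495, where it called 1.18% of all genes lower and 1.46% higher. The adjusted p of *Tpm1* by DESeq2 was 0.0511.

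**Figure D1:**
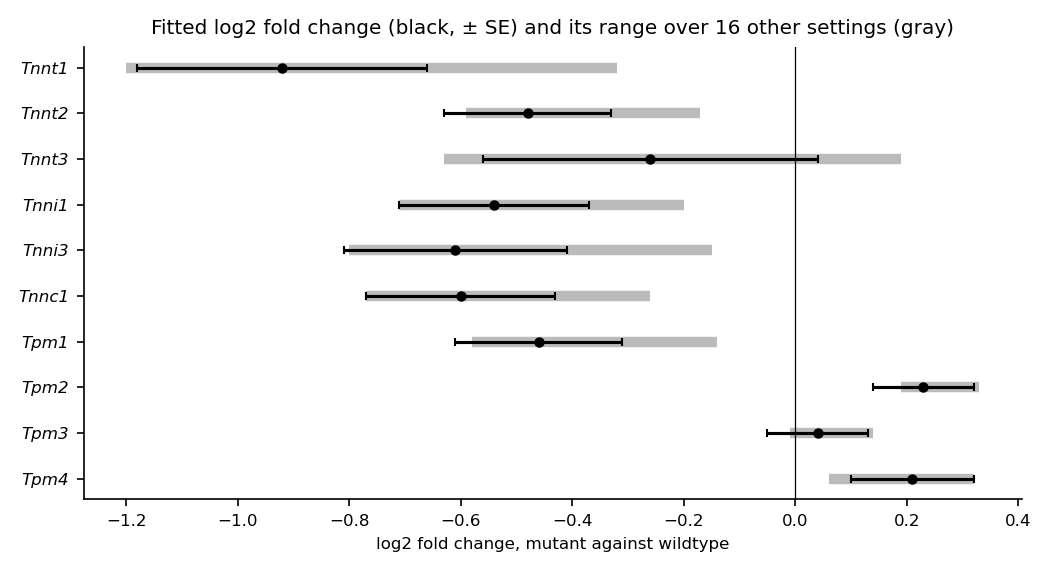
Log2 fold change of each gene, mutant against wildtype, from edgeR (black points, bars ± SE), with gray bands for the range over 16 other settings of the fit. The points of *Tnnt1*, *Tnnt2*, *Tnni1*, *Tnni3*, *Tnnc1* and *Tpm1* lie between −0.92 and −0.46 with bands that stay below 0, and those of *Tpm2* and *Tpm4* lie above 0 with bands that stay above it.

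The libraries of the 6 lower genes were ordered alike. Wildtype replicate 3 was highest and mutant replicate 2 lowest for each of the 6, and in each the lowest wildtype library was replicate 1 and the highest mutant library was replicate 3. These last libraries nearly met, so whether the groups overlapped turned on small differences between them. Groups apart were seen for 4 members lower under mutant, where 8.94% of all genes tested were apart in that direction, and for 2 higher, where 10.7% were. Without wildtype replicate 1, edgeR called all 6 lower, with adjusted p-values between 0.0148 and 0.0321 and log2 fold changes from −1.2 (*Tnnt1*) to −0.55 (*Tpm1*), and 5.3% of all genes tested were then called lower. Without wildtype replicate 3 their log2 fold changes were −0.53 (*Tnnt1*) to −0.34, with none called. Wildtype replicate 1 also stood nearest to the mutant libraries in the summed level of 8 mesenchymal genes, at 8010 CPM against 5400 and 4090 in the other wildtype libraries and 7430 to 9520 under the mutant label. The part of this in the result was not tested.

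**Figure D2:**
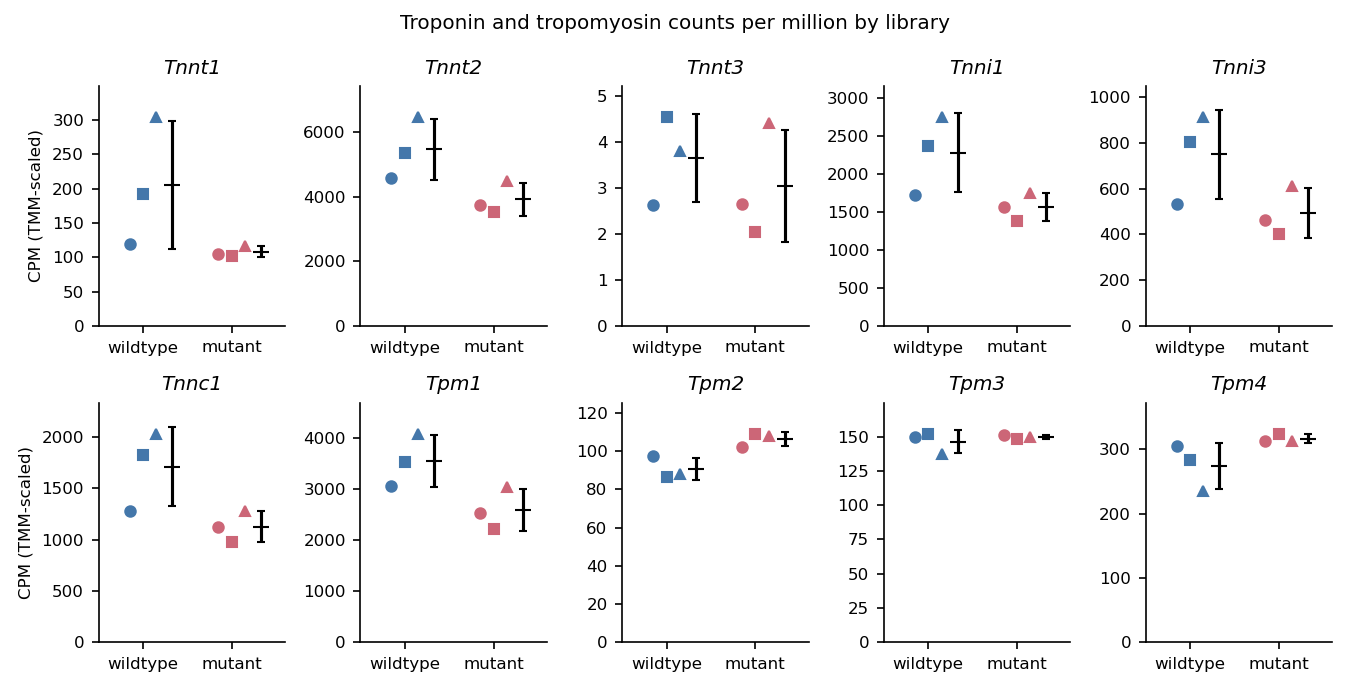
CPM of each gene by library, on axes that start at 0. Circles, squares and triangles are replicates 1, 2 and 3, blue for wildtype and red for mutant, and the bars are the mean ± SD of 3 libraries. The wildtype triangle is highest and the mutant square lowest in *Tnnt1*, *Tnnt2*, *Tnni1*, *Tnni3*, *Tnnc1* and *Tpm1*, and *Tpm4* has the reverse order.

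Among the troponin T genes, *Tnnt2* (chromosome 1, 135836354 to 135852260, plus strand, mm10), the cardiac form, gave 4570, 5350 and 6450 CPM in wildtype replicates 1 to 3 and 3750, 3510 and 4470 in the mutant libraries. Each mutant library was under each wildtype library, with mutant replicate 3 closest. The means were 3910 ± 497 and 5460 ± 946 CPM (SD, n = 3), a log2 fold change of −0.48 (SE 0.15, adjusted p = 0.214 by edgeR and 0.0391 by DESeq2). An exact permutation test of the 6 values gave p = 0.1, the smallest that 3 libraries against 3 allow, as it did for each gene whose groups did not overlap. *Tnnt1* (chromosome 7, 4504570 to 4516382, minus strand), the slow skeletal form, was at 119, 192 and 304 CPM in wildtype and at 105, 102 and 117 in the mutant libraries. The mutant libraries lay close together and the wildtype libraries were widely spread, with means of 108 ± 8.28 and 205 ± 93.1 CPM (SD, n = 3). Its log2 fold change, −0.92 (SE 0.26), was the lowest of the 10, with an adjusted p of 0.194 by edgeR and 0.144 by DESeq2. *Tnnt3* (chromosome 7, 142498836 to 142516009, plus strand), the fast skeletal form, was the least abundant, at 2.63, 4.53 and 3.79 CPM in wildtype and 2.65, 2.05 and 4.4 under the mutant label, from 77 to 188 counts a library. Its groups overlapped (log2 fold change −0.26, SE 0.30, adjusted p = 0.704 by edgeR).

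The troponin I genes differed between the groups by similar amounts. *Tnni1* (chromosome 1, 135779434 to 135810989, plus strand) gave 1720, 2370 and 2750 CPM in wildtype and 1570, 1380 and 1750 in the mutant libraries. Mutant replicate 3 was just above wildtype replicate 1, so the groups overlapped. The means were 1570 ± 182 and 2280 ± 519 CPM (SD, n = 3; log2 fold change −0.54, SE 0.17, adjusted p = 0.209 by edgeR and 0.037 by DESeq2). *Tnni3* (chromosome 7, 4518305 to 4524229, minus strand), which replaces *Tnni1* as the heart matures, was at 533, 805 and 912 CPM in wildtype and at 464, 400 and 612 in the mutant libraries. Here mutant replicate 3 exceeded wildtype replicate 1 more clearly, and the means were 492 ± 109 and 750 ± 196 CPM (SD, n = 3). The log2 fold change was −0.61 (SE 0.20), with an adjusted p of 0.224 by edgeR and 0.0495 by DESeq2.

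*Tnnc1* (chromosome 14, 31208312 to 31211729, plus strand), the calcium sensor, gave 1280, 1820 and 2030 CPM in wildtype and 1120, 978 and 1280 under the mutant label. The lowest wildtype and the highest mutant library were equal to 3 digits, so that the separation of its groups is nominal. The means were 1130 ± 152 and 1710 ± 386 CPM (SD, n = 3; log2 fold change −0.60, SE 0.17, adjusted p = 0.194 by edgeR and 0.0213 by DESeq2, the lowest DESeq2 value of the 10 genes).

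Several troponin genes lie close to another troponin gene in the genome. Whether other genes lie between them was not examined. *Tnni1* and *Tnnt2* lie 25.4 kb apart on chromosome 1, and *Tnnt1* and *Tnni3* only 1.9 kb apart on chromosome 7, each pair on one strand. The members of the first pair differed by −0.54 and −0.48 (log2) and those of the second by −0.92 and −0.61. In the third pair *Tnnt3* follows *Tnni2*, the fast skeletal troponin I, after 54.4 kb. *Tnni2* was more abundant than *Tnnt3* per library, at 22.1 ± 9.8 CPM under mutant and 36.4 ± 15.2 under wildtype (SD, n = 3), and its groups overlapped (log2 fold change −0.72, SE 0.33, adjusted p = 0.321 by edgeR).

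Among the tropomyosins, *Tpm1* (chromosome 9, 67022590 to 67049406, minus strand) had the direction of the troponins, at 3050, 3520 and 4080 CPM in wildtype and 2540, 2210 and 3030 in the mutant libraries. Wildtype replicate 1 and mutant replicate 3 were nearly level. The means were 2590 ± 413 and 3550 ± 516 CPM (SD, n = 3; log2 fold change −0.46, SE 0.15, adjusted p = 0.224 by edgeR). *Tpm2* (chromosome 4, 43514711 to 43523765, minus strand) took the other direction, with 97.4, 86.3 and 88.1 CPM in wildtype and 102, 109 and 108 in the mutant libraries. Its groups were apart and its spread small, 106 ± 4.05 against 90.6 ± 5.94 CPM (SD, n = 3), with a log2 fold change of 0.23 (SE 0.09, adjusted p = 0.278 by edgeR). *Tpm4* (chromosome 8, 72134975 to 72153142, plus strand) was at 305, 283 and 235 CPM in wildtype and 313, 324 and 313 in the mutant libraries. Wildtype replicate 3, the highest library for *Tpm1* and the lower troponins, was the lowest here, and mutant replicate 2 the highest. The means were 317 ± 6.53 and 274 ± 35.6 CPM (SD, n = 3; log2 fold change 0.21, SE 0.11, adjusted p = 0.387 by edgeR). The log2 fold change was 0.11 without wildtype replicate 3. *Tpm3* (chromosome 3, 90072649 to 90100902, plus strand) was at 150, 152 and 137 CPM in wildtype and 151, 148 and 150 in the mutant libraries. Its groups overlapped, with a log2 fold change of 0.04 (SE 0.09, adjusted p = 0.886 by edgeR).

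Reads of *Tpm3* and *Tpm4* could be shared with near-identical copies. Of the 50-base words in their transcripts, 23.2% and 15.7% also occurred in other genes, against at most 1.69% for the other 8 members. *Tpm3-rs7*, a copy that shares 1457 of these words with *Tpm3*, was listed at 117 ± 0.699 CPM under mutant and 115 ± 7.45 under wildtype (SD, n = 3). *Gm7809*, a processed pseudogene that shares 251 words with *Tpm4*, was listed at 81.8 ± 5.49 and 74.3 ± 9.76 CPM. Once the copies were added to their parents, *Tpm3* was at a log2 fold change of 0.03 and *Tpm4* at 0.19, so neither direction turned. *Tnni3* shares 86 exonic bases with *Dnaaf3* on the same strand, and *Dnaaf3* was listed with 30 to 62 counts a library. *Tpm4* shares 134 with the antisense gene *Gm26586* (20 to 44 counts), and whether counting used strand is not given in the sources used here.

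Levels of different genes were compared as CPM per kb of the longest principal transcript. *Tnnt2* was highest, at 3260 ± 414 CPM per kb under mutant and 4550 ± 789 under wildtype (SD, n = 3), and its lowest library exceeded the highest library of the next gene. *Tnnc1* (1560 ± 211 and 2370 ± 536), *Tnni1* (1360 ± 159 and 1980 ± 452) and *Tpm1* (1370 ± 218 and 1870 ± 272) followed with ranges that overlapped from each gene to the next. *Tnni3* came after them, at 539 ± 119 and 822 ± 214 CPM per kb, and *Tnnt1* at 105 ± 8.06 and 200 ± 90.6. The range of *Tnnt1* overlapped that of *Tpm4*, at 149 ± 3.07 and 129 ± 16.7. *Tnnt1* was above *Tpm4* on average but below it in each mutant library and in wildtype replicate 1. *Tpm3* (67.1 ± 0.627 and 65.5 ± 3.59), *Tpm2* (50.6 ± 1.93 and 43.2 ± 2.83) and *Tnnt3* (3.01 ± 1.21 and 3.62 ± 0.949) were lower in turn, without overlap. With exons of all transcripts joined in place of the principal transcript, *Tnnc1* was first and 6 members changed rank.

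**Figure D3:**
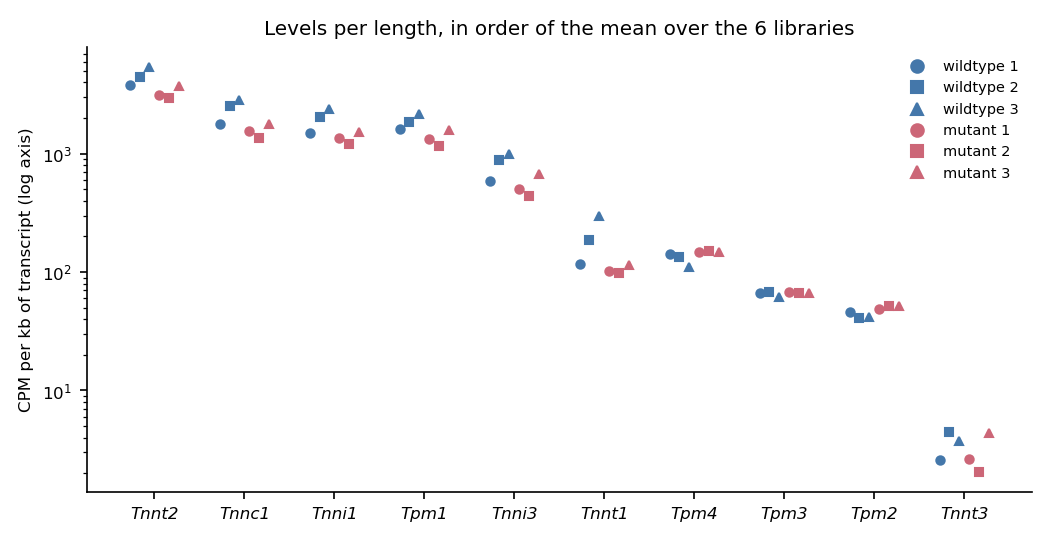
Level of each gene in CPM per kb of its longest principal transcript, on a log axis, in order of the mean of 6 libraries. Circles, squares and triangles are replicates 1, 2 and 3, blue for wildtype and red for mutant. *Tnnt2* is highest in each library (2930 to 5380), and *Tnnt3* lowest (2.04 to 4.5).

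Within the troponin families the shares of the groups overlapped for each gene. *Tnnt2* supplied 96.8 ± 0.125% of troponin T transcripts per length under mutant and 95.9 ± 1.13% under wildtype, and *Tnnt1* 3.13 ± 0.148% and 4.06 ± 1.13% (SD, n = 3; exact permutation test, p = 0.4 for each). By library the *Tnnt1* share was 2.96, 4.02 and 5.21% in wildtype and 3.16, 3.26 and 2.97% under mutant, so that 2 of the wildtype libraries lay above the mutant range. The fetal form *Tnni1* was the larger part of troponin I, at 71.8 ± 2.14% and 70.8 ± 0.995%, and *Tnni3* the smaller, at 28.2 ± 2.14% and 29.2 ± 0.995% (exact permutation test, p = 0.5). The *Tnni3* share was 28.1, 30 and 29.5% in wildtype and 27.1, 26.8 and 30.7% under mutant, with the highest and the lowest library both mutant. Troponin I summed to 0.563 ± 0.0199 of troponin T per length under mutant and 0.587 ± 0.0523 under wildtype (exact permutation test of the log2 ratio, p = 0.5), and troponin C to 0.464 ± 0.0174 and 0.498 ± 0.0447 (p = 0.3, exact permutation test). With 3 libraries a group these p-values do not show that the ratios are equal.

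Within the tropomyosins the shares of the groups were apart for each of the 4 genes, but those of *Tpm3* overlapped with near-identical copies added or with joined exons (exact permutation test, p = 0.2 in each). *Tpm1* supplied 86.2, 88.5 and 91% of tropomyosin transcripts per length in wildtype and 83.6, 81.1 and 85.7% under mutant, means of 88.6 ± 2.36% and 83.5 ± 2.3% (SD, n = 3). *Tpm4* supplied 7.68, 6.34 and 4.67% in wildtype and 9.19, 10.6 and 7.9% under mutant, means of 6.23 ± 1.51% and 9.24 ± 1.36%. The shares of *Tpm3* (3.14 ± 0.506% and 4.16 ± 0.516%) and *Tpm2* (2.07 ± 0.37% and 3.14 ± 0.434%) were likewise higher under the mutant label. Each of the 4 gave p = 0.1 in the exact permutation test, the smallest possible, and 0.2 after Benjamini-Hochberg adjustment over the 8 shares compared. The 4 shares sum to the whole and are not independent. Their size rests on the length used: with joined exons the mutant minus wildtype difference was −9.19 percentage points for *Tpm1* (−5.09 with the principal transcript), 6.65 for *Tpm4* (3.01) and 1.77 for *Tpm2* (1.06), and with copies added 1.6 for *Tpm3* (1.01).

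**Figure D4:**
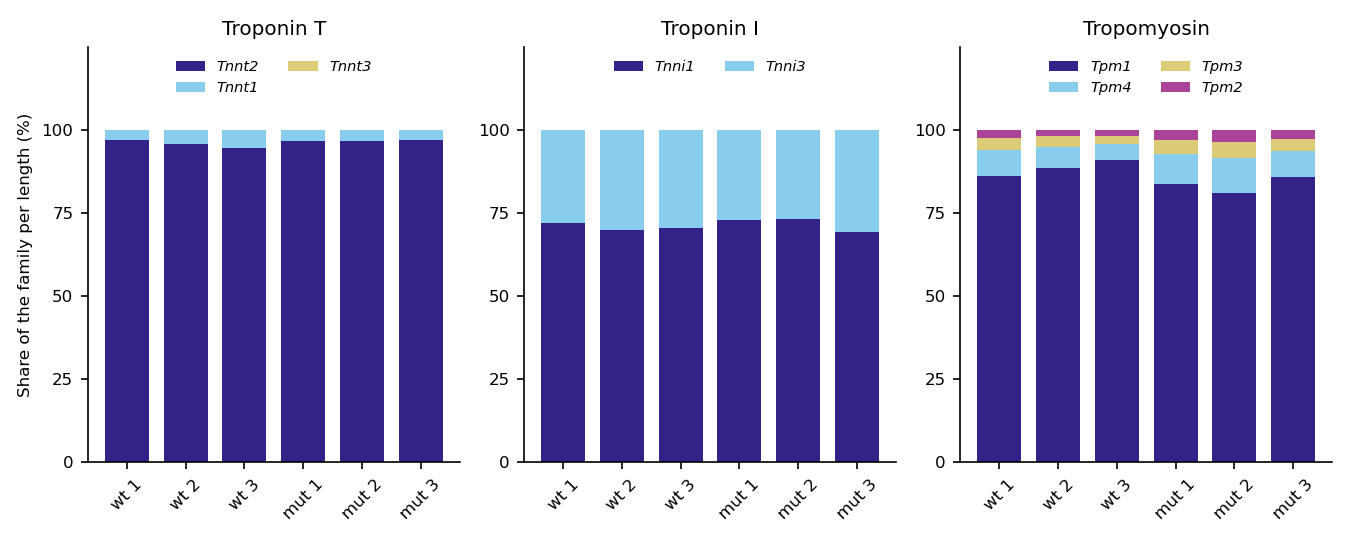
Share of each gene in the summed level per length of its family (%), for troponin T, troponin I and tropomyosin, by library, with bars stacked from 0 to the whole. *Tnnt2* and *Tnni1* are the larger part of their families in each library, and the *Tpm1* share lies at 86.2% or above in wildtype and at 85.7% or below under mutant.

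The members were also set against a myocardial reference, 20 heart muscle genes that include no member. Its summed level was 33100 to 48300 CPM in wildtype and 22400 to 32700 under mutant, without overlap, and 20 of its 20 genes had log2 fold changes below 0 (median −0.46), none called by edgeR, 14 lower at an unadjusted p under 0.05 and 5 called lower by DESeq2. In bulk tissue, fewer muscle cells and less RNA per muscle cell cannot be told apart. A mean of log2 levels weighs each gene alike. *Nppa*, a reference gene named after its values were seen, was at 42.9 CPM in wildtype replicate 1 and 130 in mutant replicate 3. Its weight in the mean was not tested. The mean log2 level of the reference differed by −0.48 (mutant minus wildtype; exact permutation test, p = 0.3). The groups overlapped in this mean, with wildtype replicate 1 at 9.64 and mutant replicate 3 at 9.7. Relative to that mean, *Tnnt2* differed between the groups by 0.01, *Tpm1* by 0.02, *Tnni1* by −0.04, *Tnnc1* by −0.10 and *Tnni3* by −0.11 (log2, mutant minus wildtype), each with overlapping groups and an exact permutation p from 0.6 to 1. The sign of each of these 5 turned when 1 library was left out or, for *Tnnt2* and *Tpm1*, when the reference was summarised by its median. With the median *Tnni1* was at −0.14, *Tnnc1* at −0.21 and *Tnni3* at −0.22. *Tnnt1* differed by −0.34 (exact permutation test, p = 0.3), and by −0.58 without wildtype replicate 1 and −0.18 without wildtype replicate 3. *Tnnt3* differed by 0.18 (exact permutation test, p = 0.6), and by 0.05 without mutant replicate 3 and 0.42 without wildtype replicate 2. The other tropomyosins stood higher relative to the reference, *Tpm2* by 0.71 (groups apart, exact permutation test, p = 0.1), *Tpm4* by 0.70 (p = 0.2, exact permutation test) and *Tpm3* by 0.52 (p = 0.3, exact permutation test). Without wildtype replicate 3 these were 0.52, 0.42 and 0.30. With the reference mean as a covariate in the fit, the median log2 fold change of the members was −0.14, and 0 members were called.

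**Figure D5:**
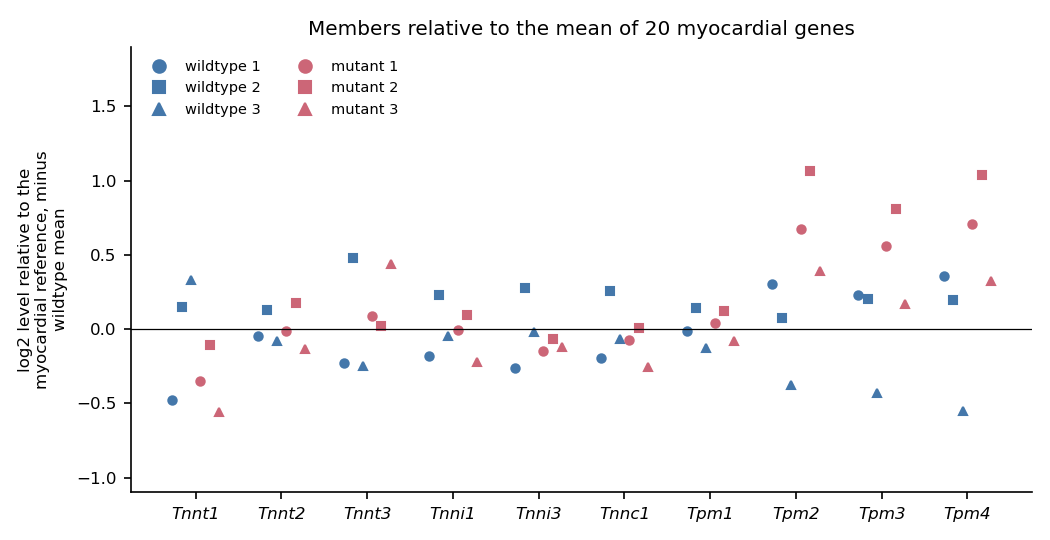
Log2 CPM of each gene minus the mean log2 CPM of the 20 reference genes, set to 0 at the wildtype mean. Circles, squares and triangles are replicates 1, 2 and 3, blue for wildtype and red for mutant. The groups interleave for *Tnnt2*, *Tnni1*, *Tnni3*, *Tnnc1* and *Tpm1*, and the mutant libraries of *Tpm2* lie above each wildtype library.

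Beside the members a list of 17 thin filament genes was read, which holds actins, partners of actin and the kinase gene *Tnni3k*. Of these, 13 had log2 fold changes below 0 and 4 above (median −0.37). EdgeR called 0, with 11 lower and 1 higher at an unadjusted p under 0.05, and DESeq2 called 3 lower. *Actc1* and *Nebl* are also in the reference. The most abundant were *Actc1*, the cardiac actin (5000 ± 1330 against 7160 ± 1640 CPM, log2 fold change −0.52), *Nebl*, the nebulette of the Z disc (−0.46), *Cap2*, an actin-binding protein (−0.45), and *Acta1*, the skeletal actin (−0.15). The genes called by DESeq2, named after their values were seen, were *Lmod2* and *Tmod1*, which set the pointed end of the filament (−0.60 and −0.47), and *Cap2*. *Tmod3*, the tropomodulin found outside striated muscle, was at 0.18 (adjusted p = 0.354 by edgeR) with groups apart, beside *Tpm4* at 0.21. Of the 17 genes, groups were apart for 8 lower, *Tnni3k* among them, and 1 higher, against 8.94% and 10.7% of all genes tested.

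Markers of other cells that could carry tropomyosins were counted beside these results. Of 12 genes of the non-muscle actin cytoskeleton, 10 had log2 fold changes above 0 and 2 below (median 0.18), with *Flna*, the filamin called higher by DESeq2, at 0.58, *Myh10* at 0.30, *Actg1* at 0.23 and *Actb* at 0.17. Their summed level was 5620 to 6620 CPM under mutant and 4630 to 5850 under wildtype, and overlapped. Of 12 smooth muscle genes, 8 were above 0 and 4 below (median 0.17). Of the most abundant, *Acta2*, the smooth muscle actin, was at −0.25, *Myl9* at −0.35 and *Cnn1* at −0.29, while *Cald1* had the direction of *Tpm2*, at 0.19. *Acta2* and *Myl9* were highest in wildtype replicate 3 and lowest in mutant replicate 2, like *Tpm1*, and *Cnn1* was lowest in mutant replicate 3. *Tagln*, named after its values were seen, was at a mean of 2.56 CPM. Whether the counts of this list came from smooth muscle or heart muscle was not tested. DESeq2 called *Actg2* (1.05) and *Myh11* (1.04) higher, named after their values were seen, at means of 11.2 and 2.97 CPM. The summed level of the 12 smooth muscle genes overlapped, at 2630 to 2910 CPM under mutant and 2890 to 3620 under wildtype. *Acta2* and *Myl9*, at means of 1300 and 963 CPM, weighed most in it. Of 8 mesenchymal genes, 8 had log2 fold changes above 0 (median 0.60), among them *Col3a1* (0.59), *Postn* (0.56), *Vcan* (0.43) and *Col1a1* (0.57, called higher by DESeq2). EdgeR called 0 genes of these 3 lists, with 2, 3 and 6 higher and 0, 2 and 0 lower at an unadjusted p under 0.05. The part of these cells in the tropomyosin values was not tested.

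The skeletal forms *Tnnt1* and *Tnnt3* were read beside 15 skeletal muscle genes, of which 11 were listed. *Tnnt1*, at 102 to 304 CPM, was above each of these but *Ckm*, and its libraries were ordered like those of *Tnnt2*. Of the 11, 8 had log2 fold changes below 0 and 3 above (median −0.72). EdgeR called 0, with 4 lower at an unadjusted p under 0.05, and DESeq2 called 1 lower, *Ckm*, the muscle creatine kinase that the heart also expresses (114 ± 22.5 against 193 ± 54.4 CPM). *Tnni2*, *Mylpf*, the fast light chain (4.46 ± 0.663 against 8.06 ± 4 CPM), and *Actn3* (2.56 ± 0.732 against 3.34 ± 0.324 CPM) followed in abundance. Wildtype replicate 2 was highest for *Mylpf* (11.5 CPM), as for *Tnnt3*. Wildtype replicate 3 was highest for *Ckm* (233 CPM), *Tnni2* (50.8 CPM) and, narrowly, *Actn3* (3.54 CPM, 3.52 in wildtype replicate 2), as for *Tnnt1*. The less abundant genes were named after their values were seen. Wildtype replicate 2 was highest for *Myh3* (6.53 CPM), *Myh8* (3.28), *Myog* (1.95), *Chrng* (0.939), *Chrna1* (0.506) and *Myod1* (0.361). For *Cacna1s* it was mutant replicate 2 (0.934 CPM). The order of libraries rests on few reads for *Myod1*, *Chrna1*, *Cacna1s* and *Chrng*, whose highest counts in a library were 15, 21, 36 and 39. The part of skeletal muscle in these values was not tested.

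For 3 members the genes with the most similar pattern were sought among 11285 genes of at least 10 CPM, by the root mean square difference of log2 CPM over the 6 libraries, each gene centred on its mean. *Oxnad1* (0.0277), *Atp5a1* (0.0295), *Dnajc15* (0.031) and *Crat* (0.0331) were among those most like *Tnnt2*. For *Tpm4* they were *Dennd4a* (0.0252), *Klhl11* (0.026), *AW549877* (0.0309), *Aff1* (0.0321) and *Arl13b* (0.0324). The pattern of *Tnnt1* was matched less closely, by *Mmrn2* (0.167), *Doc2g* (0.182), *Ppp1r1a* (0.183), *Tcap* (0.186) and *Bmx* (0.205). The 6 libraries are shared by all these genes, and the values describe likeness over them only.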

How the data were processed

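The 6 pooled OFT libraries were profiled by stranded, ribosome-depleted total RNA sequencing with paired reads of 50 bases. Alignment by the authors used TopHat2 2.1.0 on mm10, and GenomicAlignments gave exon overlaps. What they deposited is a table of raw, whole-number counts per gene. Genes with 5 or fewer reads in all were left out, as in the study. Counts were scaled by TMM and tested with the quasi-likelihood test of edgeR 4.0.16 (R 4.3.3), adjusted by Benjamini-Hochberg over 28157 genes, without covariates, with a threshold of 0.05 on the adjusted p. DESeq2 1.42.0, limma-voom 3.58.1 and other scalings, filters and covariates were alternatives. Shares, ratios and levels relative to the reference (log2 CPM, prior count 2) were compared by exact two-sided permutation over libraries.

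Positions and lengths came from GENCODE for mm10, which lacks 54 of the identifiers. Pools were labelled biological replicates, so p-values measure the spread between pools. The members and the gene lists were chosen with earlier results of these data known. Named genes are the members, *Notch1*, *Nos3*, neighbouring troponin genes, the 4 most abundant genes of a list, and the 5 genes most like *Tnnt2*, *Tnnt1* and *Tpm4*. Of these, 1 is not reported here. Other genes were named after their values were seen. The code was tested on simulated data. At 34729103 to 44387490 counts a library, counting error (1 over the root of the mean count) was 0.217% to 9.27% of a member's mean and below the spread between pools, except for *Tpm3* under mutant (1.32% against 0.934%). Identity between the proteins was not analysed here.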

Additional observations from a re-analysis of the deposited data

How the results depend on the processing

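Under each of the 16 planned settings the log2 fold changes of *Tnnt1*, *Tnnt2*, *Tnni1*, *Tnni3*, *Tnnc1* and *Tpm1* stayed below 0, and those of *Tpm2* and *Tpm4* above 0, the latter at 0.06 with the reference mean as covariate. Scaling by library size only moved the median of all genes to 0.114. *Tnnt3* (−0.63 to −0.05 with 1 library left out) turned to 0.19 and *Tpm3* to −0.01 with the reference mean as covariate, and *Tpm3* to −0.01 without wildtype replicate 3 (range with 1 library left out, −0.01 to 0.06). DESeq2 called 4 members lower, and of the genes of the fixed lists 4 higher and 11 lower. With 1 library left out, members called lower ranged from 0 to 6, list genes called higher from 0 to 16 and lower from 0 to 26, each highest without wildtype replicate 1. The members' median was −0.14 with the covariate. Ranks by level moved for 4 members without division by length, for 6 with joined exons (added after the data were seen) and for 0 to 2 with 1 library left out. Of 88 alternatives for shares and ratios 2 reversed. The *Tnnt3* share reversed to −0.00219 percentage points without mutant replicate 3 (range with 1 library left out, −0.00219 to 0.021), and the log2 ratio of troponin I to T to 0.00102 without wildtype replicate 2 (range −0.127 to 0.00102). Relative to the reference, *Tnnt2* turned to −0.09 with the median of the list and to −0.01, −0.03 and −0.07 without wildtype replicate 1, wildtype replicate 3 or mutant replicate 2 (range −0.07 to 0.08). *Tpm1* turned to −0.08 with that median, and to −0.04 and −0.02 without wildtype replicate 3 or mutant replicate 2 (range −0.04 to 0.09). *Tnni1* turned to 0.07, *Tnni3* to 0.03 and *Tnnc1* to 0.03 without wildtype replicate 2, and *Tnni1* to 0.05 without mutant replicate 3 (ranges −0.13 to 0.07, −0.24 to 0.03 and −0.20 to 0.03). The causes were not tested.

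Whether the replicate numbers pair the samples is not settled by their correlations. Deviations from the group means correlated at 0.096, 0.159 and 0.42 across 16655 genes for the numbers of the titles. Mutant replicates 1 and 3 correlated best with the wildtype library of the same number, but mutant replicate 2 with wildtype replicate 1 (0.277). With a replicate block on the numbers of the titles 6 members were called lower (2.42% of all genes), and 12 list genes higher and 28 lower. With the replicate block and a correction for GC content and length together, 6 members were called lower and 1 higher (3.69% and 3.9% of all genes), and 18 list genes higher and 38 lower. With the block on the numbers of the descriptions (correlations 0.096, −0.441 and −0.121), added after the data were seen, 0 members were called (0.295% of all genes). For *Tpm3* under mutant, at 5559 to 6047 counts a library, the counting error (1.32%) exceeded the spread between pools (0.934%). Counting error was largest for *Tnnt3* under mutant (9.27%, against a spread of 40.2%).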

Other observations

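Genes that regulate muscle genes showed no common direction. Of 18, 10 had log2 fold changes above 0 and 8 below (median 0.03), and edgeR and DESeq2 called 0, with 1 higher and 3 lower at an unadjusted p under 0.05. The most abundant were *Tbx20* (0.39), *Smyd1* (−0.41), *Gata4* (0.20) and *Tead1* (−0.14). *Gata4*, a cardiac zinc finger factor, had groups apart, at 264, 237 and 248 CPM in wildtype and 294, 282 and 285 under mutant (adjusted p = 0.326 by edgeR). Of the 18, groups were apart for 2 higher, *Gata4* and *Mrtfb*, and 1 lower, *Myocd*. Of all genes tested, 10.7% and 8.94% were apart in these directions. *Nkx2-5*, a homeobox factor of the heart muscle named after its values were seen, was at 76.2 ± 14.6 CPM under wildtype and 55.8 ± 7.08 under mutant (SD, n = 3; log2 fold change −0.45, adjusted p = 0.223 by edgeR).

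Markers of the remaining cell types were called by edgeR in 0 cases, with 2 endothelial genes higher and 6 blood genes lower at an unadjusted p under 0.05. Of 8 endothelial genes, 6 were below 0 and 2 above (median −0.06), with *Cdh5* at −0.21, *Pecam1* at −0.09, *Tek* at −0.02 and *Tie1* at −0.03. Of 6 epicardial genes, 4 were below 0 and 2 above (median −0.10), with *Upk3b* at −0.20, *Tbx18* at 0.04, *Tcf21* at −0.01 and *Aldh1a2* at −0.38. Of 8 blood genes, 8 were below 0 (median −0.56), led by *Hba-a2* (−0.57), *Hba-a1* (−0.56), *Hbb-bs* (−0.55) and *Hbb-y* (−0.56), and DESeq2 called 2 lower, *Hbb-y* and *Hbb-bh1*. Near-identical globin copies make the split between them uncertain. Summed blood levels were 5300, 11800 and 10100 CPM in wildtype and 6090 to 6230 under mutant, so that wildtype replicate 1 lay below the mutant libraries.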
